A study of Mus musculus with 17 samples.

Results

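The genes described here encode subunits of the mouse proteasome. They were taken by symbol and level: protein-coding genes whose symbol is Psma, Psmb, Psmc, Psmd or Psme followed by a digit and whose mean count over 17 libraries was at least 20. Of 55401 identifiers in the count table, 43 met this rule, out of 11110 protein-coding genes at or above that mean count. The members just inside the minimum were Psma8 with a mean count of 30 and Psmc3ip with 41.4, and the gene just outside it was Psmb11, a thymus subunit, with 0.412. The remaining 41 members had a count of at least 150 in each library. Psmc3ip fits the symbol rule but encodes a meiotic recombination factor and no proteasome subunit, so it is named apart and the counts below run over the other 42 genes. These are 15 genes of the core particle (8 alpha subunits, with the testis form Psma8, and 7 beta subunits), 17 of the regulatory cap (9 of its base and 8 of its lid), 3 chaperones that assemble the cap, 5 of the genes induced by interferon (Psmb9, Psmb10, Psme1, Psme2 and Psme2b, the immunoproteasome group) and the activators Psme3 and Psme4. All 42 passed the filter on low counts in each comparison.

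The study sequenced RNA of bone marrow-derived macrophages, which are grown in culture from mouse marrow. Cells of strain C57BL/6J formed 4 groups: a control (3 libraries), cells given medium conditioned by B16F10 mouse melanoma cells (3), and cells given that medium with KCl (3) or NaCl (2) at a final 40 mM. The other groups received conditioned medium with KCl labelled isotonic, in cells of strain Kcnj2f/f (3 libraries, called floxed) or Lyz2-Cre-Kcnj2f/f (3 libraries, called knockout). Both of these strains carry the floxed allele of Kcnj2, which encodes an inward rectifier potassium channel, and Lyz2-Cre expresses the recombinase in myeloid cells from the lysozyme locus. Treatment lasted 6 hours. The labels give neither what the control cells received, nor the concentration of the isotonic KCl, nor the age of the mice, nor which libraries came from separate animals or cultures, so p-values measure the spread between these libraries, which may be technical.

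The proteasome degrades proteins marked with ubiquitin. Its core particle is a stack of alpha and beta rings, in which Psmb5, Psmb6 and Psmb7 carry the catalytic sites. The regulatory cap binds ubiquitin, unfolds the substrate with a ring of ATPases (the Psmc genes) and feeds it into the core. Under interferon, Psmb9 and Psmb10 take the places of Psmb6 and Psmb7 in newly built cores, and Psme1 and Psme2 encode the alpha and beta subunits of the activator PA28, so that more peptides suited to MHC class I are made. When proteasome activity falls short, the factor Nfe2l1 raises transcription of most subunit genes through antioxidant response elements.

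Promoter windows of 35 of the 42 subunit genes were found in RefSeq (mouse build GRCm38.p6, 250 bases before to 50 after each start). The 4 shown are those of Psmb6 and Psmb9, which were the highest and the lowest gene with KCl, and those of Psmb5 and Psmd11, which were added after their values were seen. Capitals mark a match to the antioxidant response element core, TGACNNNGC, on either strand.
Psmb6, chr11:70525107-70525406, plus strand: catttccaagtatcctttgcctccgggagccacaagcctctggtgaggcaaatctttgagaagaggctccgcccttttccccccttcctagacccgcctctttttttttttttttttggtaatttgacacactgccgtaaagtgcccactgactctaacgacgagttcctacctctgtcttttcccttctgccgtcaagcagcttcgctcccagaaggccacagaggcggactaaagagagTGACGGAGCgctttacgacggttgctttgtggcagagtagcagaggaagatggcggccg
Psmb5, chr14:54617946-54618245, minus strand: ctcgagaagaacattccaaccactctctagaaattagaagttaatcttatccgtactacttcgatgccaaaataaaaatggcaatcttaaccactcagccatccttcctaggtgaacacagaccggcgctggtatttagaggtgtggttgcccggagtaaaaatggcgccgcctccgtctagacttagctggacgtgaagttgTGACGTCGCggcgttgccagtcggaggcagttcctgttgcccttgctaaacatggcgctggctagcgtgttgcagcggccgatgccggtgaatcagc
Psmb9, chr17:34187281-34187580, minus strand: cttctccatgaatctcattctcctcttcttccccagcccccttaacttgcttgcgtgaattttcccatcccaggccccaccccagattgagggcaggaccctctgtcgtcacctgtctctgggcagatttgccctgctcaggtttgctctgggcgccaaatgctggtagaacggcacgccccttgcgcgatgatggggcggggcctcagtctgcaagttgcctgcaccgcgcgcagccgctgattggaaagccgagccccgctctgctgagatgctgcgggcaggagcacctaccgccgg
Psmd11, chr11:80428365-80428664, plus strand: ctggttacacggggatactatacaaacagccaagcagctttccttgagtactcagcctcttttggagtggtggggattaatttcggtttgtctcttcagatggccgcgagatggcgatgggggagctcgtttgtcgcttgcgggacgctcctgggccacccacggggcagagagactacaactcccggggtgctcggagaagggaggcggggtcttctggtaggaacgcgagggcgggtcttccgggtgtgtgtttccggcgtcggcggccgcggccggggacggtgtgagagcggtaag
The window of Psmb6 holds the match TGACGGAGC starting at position −9 from the start site, and that of Psmb5 holds TGACGTCGC at −47. The windows of Psmb9 and Psmd11 hold no match to this core, to the interferon-stimulated element (GAAA, any 2 bases, GAAA) or to the gamma-activated site TTCNNNGAA. Among the 35 genes, 6 had the antioxidant core in a window (17.1%, Psmb5, Psmb6, Psmc6, Psmd9, Psmd12 and Psme4). Of 27025 genes with a window of the same length, 13.99% had it. A gene can have several windows and was counted if any of them matched. The interferon-stimulated element was found for 4 genes (11.4%, Psmb3, Psmd4, Psmd9 and Psme1) against 3.99% of all genes. The gamma-activated site was found for 1 gene (2.86%, Psmd2) against 9.55%, and the short box CCAAT for 13 genes (37.1%, not in capitals above) against 41.1%. Both strands were searched, none of the 4 patterns contains another, and a match is a description of the letters only.

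Total counts per library were 13503869 to 19391623. Levels are CPM, counts scaled to library size with TMM factors over the 17 libraries, and a gene is called at a Benjamini-Hochberg adjusted p under 0.05 in edgeR's quasi-likelihood test over all genes of a fit. Kcnj2 stood at 153 ± 17.6 CPM in floxed and 24.5 ± 4.87 CPM in knockout cells (SD, n = 3 and 3, log2 fold change −2.64, adjusted p = 0.0150). Markers of macrophages summed to 25537 to 29360 CPM in the first 5 groups and 12542 to 13683 CPM in knockout cells. Most of the sum in the first 5 groups was Lyz2, with group means of 20947 to 22431 CPM. Lyz2 is the lysozyme locus from which Cre is expressed in the knockout strain. It was at 7636 ± 637 CPM in knockout against 22431 ± 2383 in floxed cells (adjusted p = 0.0593). Whether the other macrophage markers differed in knockout cells was not tested apart from Lyz2. The 6 melanoma markers summed to 0.426 to 1.24 CPM over all libraries, with Tyr and Dct at 0 counts in each. Neutrophil markers summed to 7.47 to 9.18 CPM in control and 18.4 to 22.4 CPM in conditioned medium. For dendritic cell markers the sum lay between 16.3 and 23.0 CPM in KCl libraries, between 6.52 and 7.75 CPM in NaCl libraries and between 1.51 and 4.42 CPM in control and conditioned medium libraries. Mean counts were under 20 for 3 of the 4 dendritic and 6 of the 9 neutrophil markers, so those sums rest on few genes. For stromal markers the sum lay between 554 and 686 CPM in control, between 479.9 and 529 CPM in conditioned medium and between 284 and 451 CPM in KCl libraries. Floxed libraries had 236 to 478 CPM of stromal markers and knockout libraries 166 to 229 CPM. The part of these markers in the results below was not tested. Libraries also differed in the length slope, which is the slope of a library's log2 CPM, centred per gene, on log2 transcript length: below 0, short transcripts take a larger share of the counts. Control libraries had slopes of 0.07 to 0.13, those in conditioned medium 0.04 to 0.11. The slope ran from −0.12 to 0.01 with KCl (library 3 the highest), 0.09 to 0.14 with NaCl, −0.20 to 0.13 in floxed (library 1 the highest) and −0.18 to −0.03 in knockout cells.

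In macrophages given conditioned medium, most of the proteasome rose together. The 42 genes summed to 4186, 4282 and 4027 CPM in the control libraries and to 7557, 7226 and 6867 CPM in conditioned medium. Of the 42, 36 rose and 0 fell, with a median log2 fold change of 0.65 against −0.04 over all 14519 genes tested. Over all genes 27.2% were called higher, 26.4% lower and 53.5% either way. The libraries of the 2 groups did not overlap for any of the 36. How many of all genes were separate in this way was not counted, here or below. All 36 calls were also made without any 1 library of the 2 groups. In bulk RNA, fewer cells and less RNA per cell cannot be told apart.

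**Figure D1:**
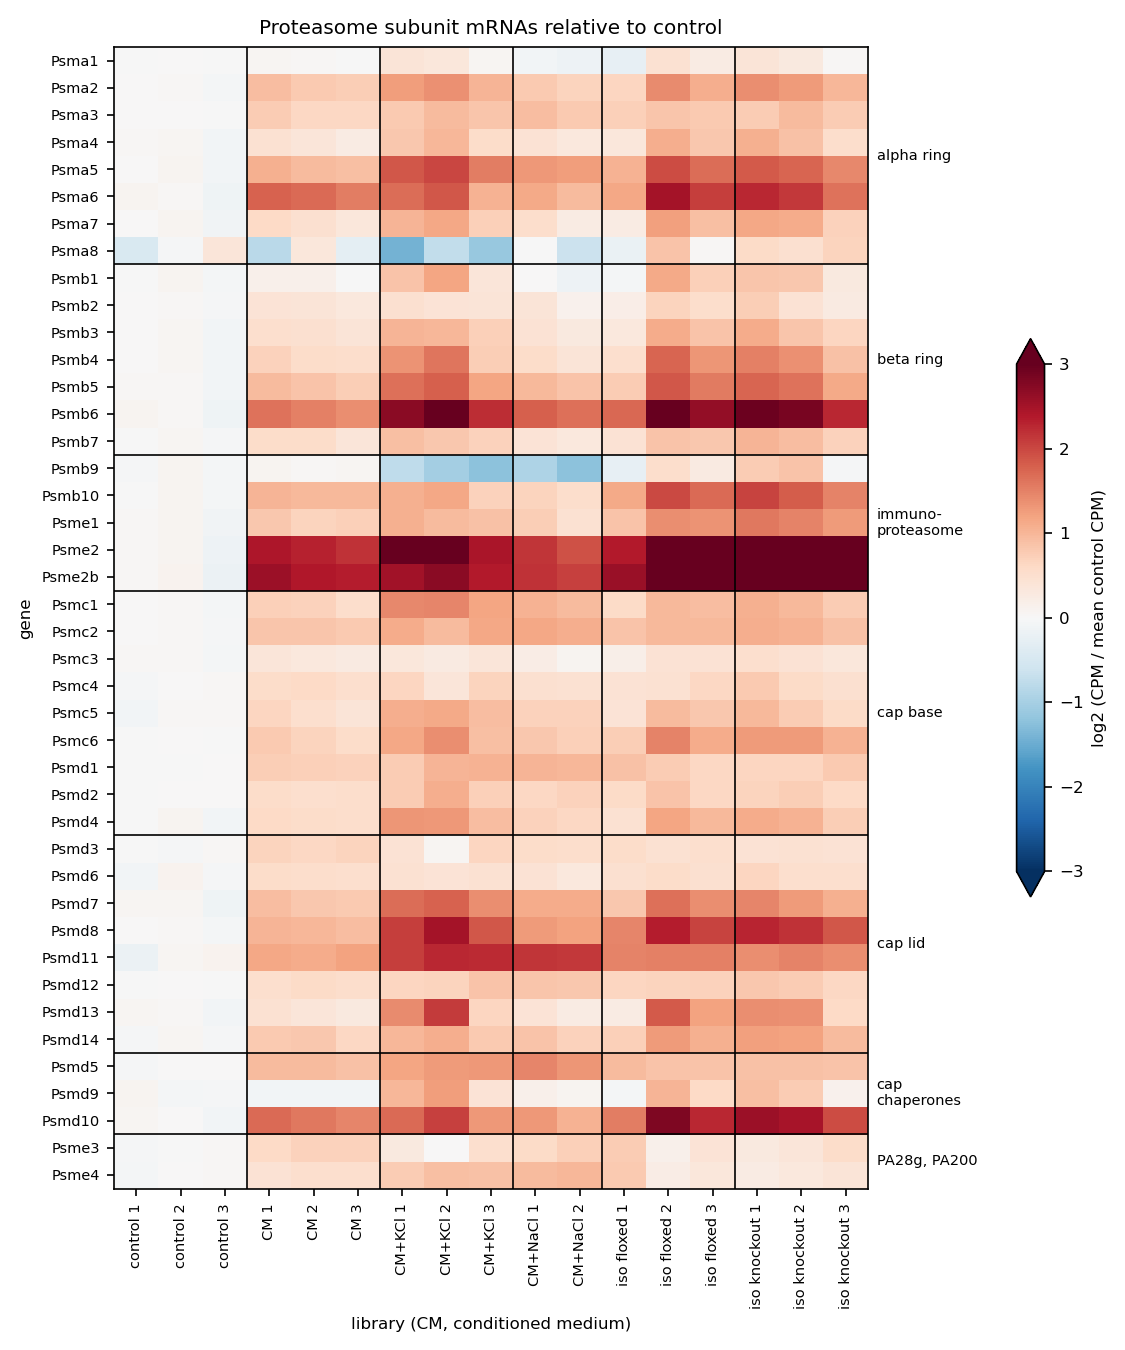
Level of each of the 42 proteasome genes (rows, by role) in each of the 17 libraries (columns), as log2 of CPM over the mean control CPM, with colour saturating at 3 in either direction. Most rows are redder in conditioned medium than in control, Psmb9 is lowest with KCl and NaCl, and the KCl and isotonic columns differ among replicates.

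In the alpha ring, which gates the core, 6 of 8 genes rose in conditioned medium. Psma6 had the largest fold change of the core: it stood at 167, 162 and 143 CPM in control and 538, 510.3 and 453 CPM in conditioned medium (log2 fold change 1.67, SE 0.17, adjusted p = 3.9e-06). Its lowest treated library was above its highest control by more than the spread of either group. Psma1 stood at 160.3 to 161 CPM in control and 159 to 167 CPM in conditioned medium (0.02, SE 0.08, adjusted p = 0.823), and Psma8, with at most 56 counts in any library, at 1.29, 1.75 and 2.31 CPM against 1.01, 2.27 and 1.45 CPM (−0.18, SE 0.33).

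In the beta ring 6 of 7 genes rose. Psmb6, the caspase-like catalytic subunit, went from 158, 153 and 138 CPM to 464, 427 and 393 CPM (1.52, SE 0.16, adjusted p = 5.9e-06). Psmb5, the chymotrypsin-like subunit, went from 127, 127 and 117 CPM to 238, 222 and 206 CPM (0.85, SE 0.12, adjusted p = 6.6e-05). Psmb7, the trypsin-like subunit, went from 98.2, 103 and 96.4 CPM to 145, 145 and 127 CPM (0.49, SE 0.08, adjusted p = 1.9e-04). The groups were separate for all 3 catalytic genes, and the fold change was highest for Psmb6 and lowest for Psmb7, a difference between genes that was not tested. Psmb1, a non-catalytic beta subunit, had a log2 fold change of 0.10 (SE 0.15, adjusted p = 0.622).

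In the cap all 9 base genes rose, from 0.32 for the ATPase Psmc3 to 0.82 for the ATPase Psmc2. Of the 8 lid genes 7 rose. The highest was Psmd11, the scaffold subunit Rpn6, which stood at 38.1, 44.3 and 45.7 CPM in control and 95.0, 91.9 and 98.2 CPM in conditioned medium (1.15, SE 0.08, adjusted p = 6.4e-08). The lid gene without a call was Psmd13 (0.37, SE 0.27, adjusted p = 0.267). Of the chaperones, Psmd10, also known as gankyrin, rose from 42.6, 41.1 and 38.6 CPM to 132, 122 and 113 CPM (1.59, SE 0.15, adjusted p = 1.2e-06), and Psmd5 rose by 0.93, while Psmd9 stood at 30.6 to 34.2 CPM in control and 30.1 to 30.3 CPM in conditioned medium (−0.09, SE 0.16, adjusted p = 0.668). Control and treated libraries did not overlap for any of these cap genes or chaperones. That includes Psmd13 and Psmd9, which were not called, so non-overlap alone does not mark a change. For Psmd9 the nearest libraries were at 30.6 CPM in control and 30.3 CPM in conditioned medium.

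The immunoproteasome group held both the highest fold changes and a gene that was not called. Psme2 and Psme2b have transcripts that are identical at 789 of 794 aligned bases (99.4%), so counting may split reads between them and each value alone is uncertain. Added together they had 91.7 to 110.4 CPM in control libraries and 504 to 584 CPM in conditioned medium. Taken singly, Psme2 went from 40.3, 41.6 and 35.5 CPM to 209, 194 and 177 CPM (2.31, SE 0.27, adjusted p = 2.9e-05) and Psme2b from 65.5, 68.8 and 56.2 CPM to 375, 336 and 327 CPM (2.45, SE 0.11, adjusted p = 2.9e-10). Psme1, the partner of Psme2 in PA28, rose from 97.7, 102 and 88.7 CPM to 168, 152 and 157 CPM (0.73, SE 0.09, adjusted p = 1.4e-05). Psmb10 rose from 40.0, 42.9 and 38.8 CPM to 82.3, 79.8 and 80.0 CPM (0.99, SE 0.11, adjusted p = 2.8e-06). The groups stood apart for these genes, but not for Psmb9.

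Psmb9 stood at 26.4, 28.6 and 25.6 CPM in control and 28.3, 27.5 and 27.9 CPM in conditioned medium (0.06, SE 0.12, adjusted p = 0.714), so the groups overlapped. Its gene (chr17:34181987-34187764, minus strand, GRCm38 in GENCODE M21) lies head to head with Tap1, a peptide transporter of MHC class I loading. The annotated genes overlap, with 5′ ends 211 bases apart. The strand setting of the counting is not given in the sources used here, so reads in the overlap cannot be assigned. Tap1 rose over the same libraries (1.11, SE 0.11, adjusted p = 1.3e-06).

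The activators Psme3 (PA28 gamma, nuclear) and Psme4 (PA200) also rose in conditioned medium, by 0.66 (SE 0.11) and 0.48 (SE 0.07). Psmc3ip, the gene taken by symbol alone, was called lower (−0.76, SE 0.27, adjusted p = 0.0306), a call lost without any 1 of the 6 libraries (0.0513 to 0.0876). Scaling by total counts in place of TMM shifted the median of all genes by −0.34: 23 subunits were then higher and 3 lower (Psma1, Psmb9 and Psmd9), and the median over the 42 stood 0.69 above that of all genes under either scaling. Psmc3 changed sign there (−0.02).

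**Figure D2:**
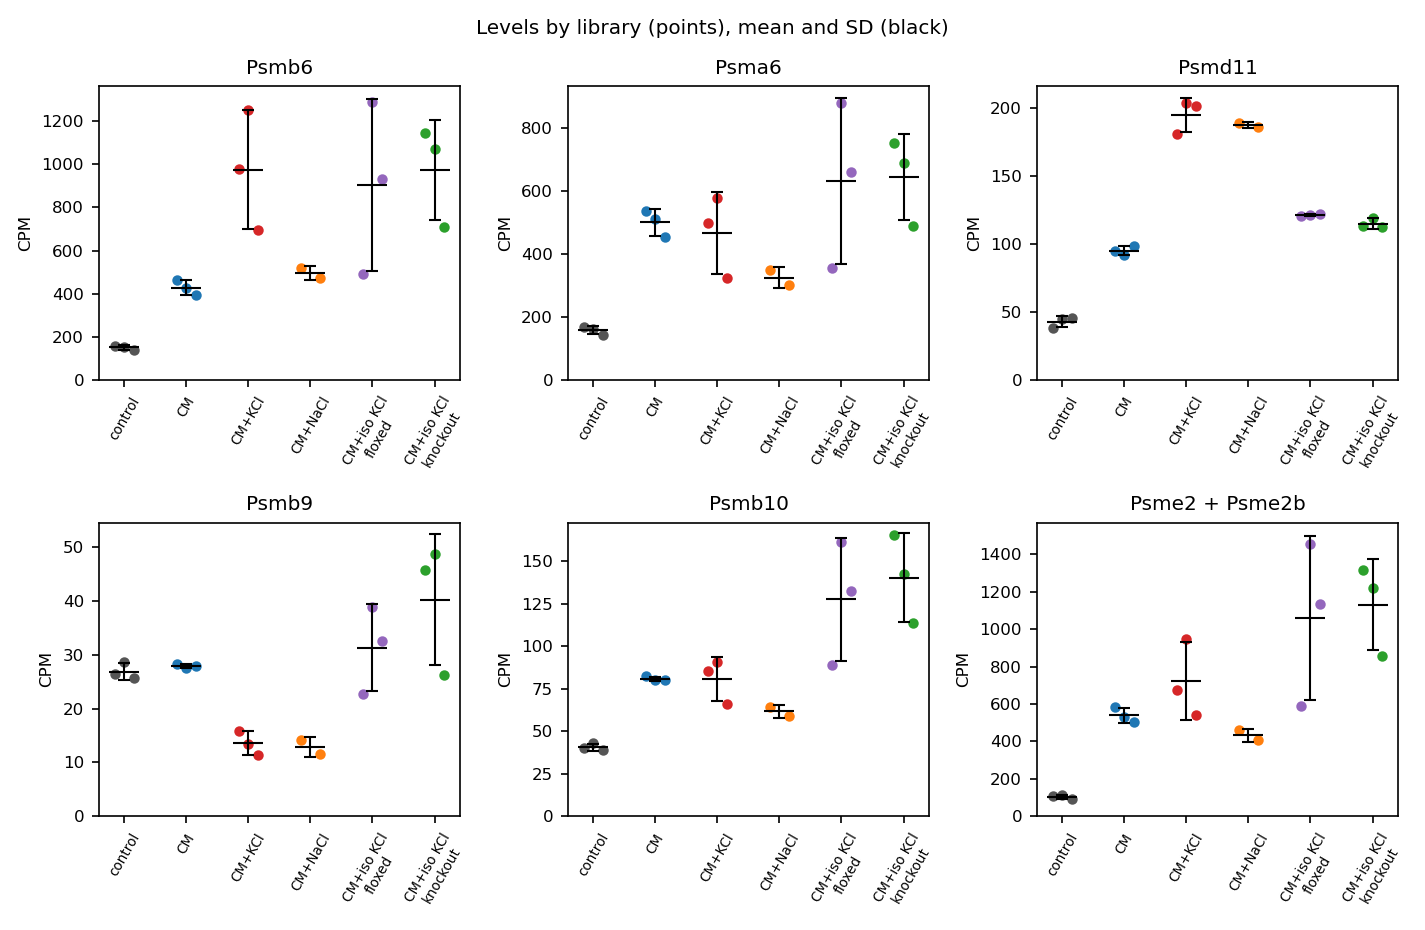
CPM of Psmb6, Psma6, Psmd11, Psmb9, Psmb10 and the sum of Psme2 and Psme2b in each library (points) of the 6 groups, with the mean and SD in black. Psmd11 is highest with KCl and NaCl, Psmb9 is lowest there, and the KCl and isotonic groups spread widely for the other genes.

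Genes that act with the proteasome were read from lists of its assembly factors, associated proteins and transcriptional regulators. Of 5 core assembly factors (Pomp and Psmg1 to Psmg4) 0 were called in conditioned medium against control, with an unadjusted p between 0.0522 and 0.724. Of 20 associated genes tested, 14 rose and 1 fell. The 6 with the smallest p all rose: Zfand5, which binds the cap (1.97), Txnl1 (0.89), Ecpas (0.78), the deubiquitinase Usp14 (0.82), the shuttle Ubqln1 (0.60) and the ubiquitin receptor Adrm1 (0.70). Of 15 regulators, 9 rose and 4 fell. The shares called over all genes were 27.2% higher and 26.4% lower. Nfe2l1 rose from 149 ± 1.42 to 483 ± 13.5 CPM (1.70, SE 0.07, adjusted p = 2.2e-10), Nfe2l2 by 1.00, their partners Maff by 3.49 and Mafg by 1.49, and the activators of MHC class I genes Irf1 by 1.45 and Nlrc5 by 1.34.

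With KCl at 40 mM added to conditioned medium, a majority of subunits were called higher and Psmb9 was called lower. The 42 genes summed to 10354, 11917 and 8627 CPM in KCl libraries 1, 2 and 3. Of the 42, 27 rose and 2 fell, with a median of 0.31 against −0.01 over all genes. Of all genes 26.6% were called higher, 27.4% lower and 53.9% either way. For transcripts of up to 1000 bases the median was 0.48 over all genes and 0.47 over 7 subunits. From 1000 to 2000 bases it was 0.09 over all genes and 0.24 over 24 subunits. For longer transcripts it was −0.11 (2000 to 4000 bases) and −0.09 (above) over all genes, and 0.32 over 11 subunits. The rise covered 11 of 15 core genes and 11 of 17 cap genes. The length slopes of these libraries were −0.08, −0.12 and 0.01, so the sum was highest where the slope was lowest. With the slope as a covariate 11 rose and 5 fell, with a median of 0.05, of which 10 and 1 had the same call before, and 15.7% of all genes were called higher and 17.01% lower. Slopes did not overlap between the 2 groups, so slope and KCl cannot be told apart.

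Psmb6 was the highest, at 977, 1251 and 697 CPM with KCl (1.18, SE 0.16, adjusted p = 6.4e-05), each above the conditioned medium libraries. With the slope as a covariate its value was 0.42 and was still called. Psmd8, a lid subunit, stood at 378, 374 and 353 CPM in conditioned medium and 789.9, 1051 and 673 CPM with KCl (1.17, SE 0.12, adjusted p = 4.1e-06), and also kept its call (0.69). Psmd13, also of the lid, stood at 157, 149 and 141 CPM against 308, 492 and 179 CPM (1.12, SE 0.27, adjusted p = 0.00497). KCl library 2 was the highest and library 3 the lowest for Psmd13, whose value was 0.71 without library 2 and −0.06 with the covariate. Of the other catalytic genes, Psmb5 was at 388, 429 and 279 CPM with KCl (0.70, SE 0.12) and Psmb7 at 185, 173 and 161 CPM (0.30, SE 0.08), all above conditioned medium, and both calls were lost with the covariate (0.13 and 0.10).

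Psmb9 fell with KCl to 15.9, 13.4 and 11.4 CPM (−1.05, SE 0.12, adjusted p = 1.1e-05). Each KCl library lay below each conditioned medium and control library. Its call held in each of 16 alternatives, at −1.45 to −0.94, and Tap1 fell too (−1.20, adjusted p = 1.6e-06). The other inducible catalytic gene, Psmb10, overlapped with conditioned medium at 85.3, 90.9 and 65.8 CPM (−0.01, SE 0.10). Psme1 was called higher at 199.6, 186 and 176 CPM (0.23, SE 0.09, adjusted p = 0.0463), a call lost without conditioned medium library 2 (0.164) or 3 (0.124) or KCl library 1 (0.156). Psme2 was at 309, 532 and 214 CPM (0.85, SE 0.25, adjusted p = 0.0156) with 0.43 without KCl library 2, and changed sign with the covariate (−0.29), and Psme2b was at 0.09 (SE 0.10).

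The other gene called lower was Psme3, at 109, 115 and 116 CPM in conditioned medium and 88.2, 71.7 and 101 CPM with KCl (−0.38, SE 0.11, adjusted p = 0.00845), which went to 0.01 with the covariate. Psma8, between Psmb9 and Psme3 in fold change, was at 0.672, 1.07 and 0.811 CPM with KCl and 1.01, 2.27 and 1.45 CPM without (−0.92, SE 0.39, adjusted p = 0.0609). 2 further calls were lost without 1 library: that on Psma1 without any library but KCl 3 (0.0614 to 0.137), and that on Psmd1 without conditioned medium library 2 (0.0692) or 3 (0.0808). Under total-count scaling, which shifts all genes by −0.21, 17 subunits were higher and 7 lower (Psma8, Psmb9, Psmb10, Psmc3, Psmd3, Psmd6 and Psme3).

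With the same amount of NaCl, Psmd11, Psmd5 and Psme4 were higher and Psmb9 lower than in conditioned medium alone under each alternative, and the other calls on subunits depended on single libraries. The 42 genes summed to 7623 and 7117 CPM. Of the 42, 7 rose and 4 fell, with a median of −0.03 against −0.01 over all genes, of which 13.7% were called higher, 14.9% lower and 28.7% either way. These shares are near those of the subunits (7 and 4 of 42). The 7 were the cap genes Psmd11, Psmc1, Psmc2, Psmd1 and Psmd12, the chaperone Psmd5 and the activator Psme4. The median ran from −0.06 without conditioned medium library 3 to 0.06 without NaCl library 2. The test on only these 2 groups called 15 up and 7 down, with 23.2% of all genes called up and 23.5% down. The length covariate gave 17 up and 5 down, with 17.96% and 18.8% of all genes.

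Psmd11 stood at 189 and 186 CPM with NaCl (0.99, SE 0.09, adjusted p = 5.15e-06) and at 181, 203 and 201 CPM with KCl (1.03, SE 0.08, adjusted p = 4.2e-07), against 95.0, 91.9 and 98.2 CPM in conditioned medium. All 5 salt libraries were above all conditioned medium libraries. The call held in each of 14 alternatives with NaCl (0.92 to 1.13) and of 16 with KCl (0.77 to 1.11), length covariate included. Psme4 rose to 129.9 and 134 CPM with NaCl from 90.2, 94.5 and 95.1 CPM (0.51, SE 0.08), and Psmd5 to 122 and 111 CPM from 85.6, 85.6 and 81.9 CPM (0.47, SE 0.08). Those 2 calls held in each of the 14 alternatives.

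Psmb9 fell with NaCl to 14.1 and 11.5 CPM (−1.11, SE 0.14, adjusted p = 5.6e-05), below each library without added salt, and the call held in each of 14 alternatives (−1.26 to −0.98). Psma6 was at 348 and 302 CPM (−0.62, SE 0.19, adjusted p = 0.0268) and Psmb10 at 64.3 and 58.9 CPM (−0.38, SE 0.12, adjusted p = 0.0254). Both were below conditioned medium in each library. The call on Psma6 was lost without either NaCl library or without conditioned medium library 1 or 2 (0.0655 to 0.189), and that on Psmb10 without any 1 of the 5 libraries (0.0568 to 0.186). The third lowest was Psmd10, at 101 and 84.5 CPM (−0.40, SE 0.16, adjusted p = 0.0882). Psme2b (−0.33) lost its call without any 1 library (0.0572 to 0.260), and Psmc2, Psmd1 and Psmd12 theirs without NaCl library 1 (0.0970 to 0.117) or 2 (0.0559 to 0.114). Psmc1 lost it without NaCl library 1 (0.110) or 2 (0.0531) or conditioned medium library 3 (0.0583), and Psmd12 also without conditioned medium library 1 (0.0633).

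Both salt comparisons share the conditioned medium libraries. Called higher in both were 6 genes (Psmc1, Psmc2, Psmd1, Psmd11, Psmd5 and Psme4), which is 6 of 27 with KCl and 6 of 7 with NaCl, and called lower in both was Psmb9.

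**Figure D3:**
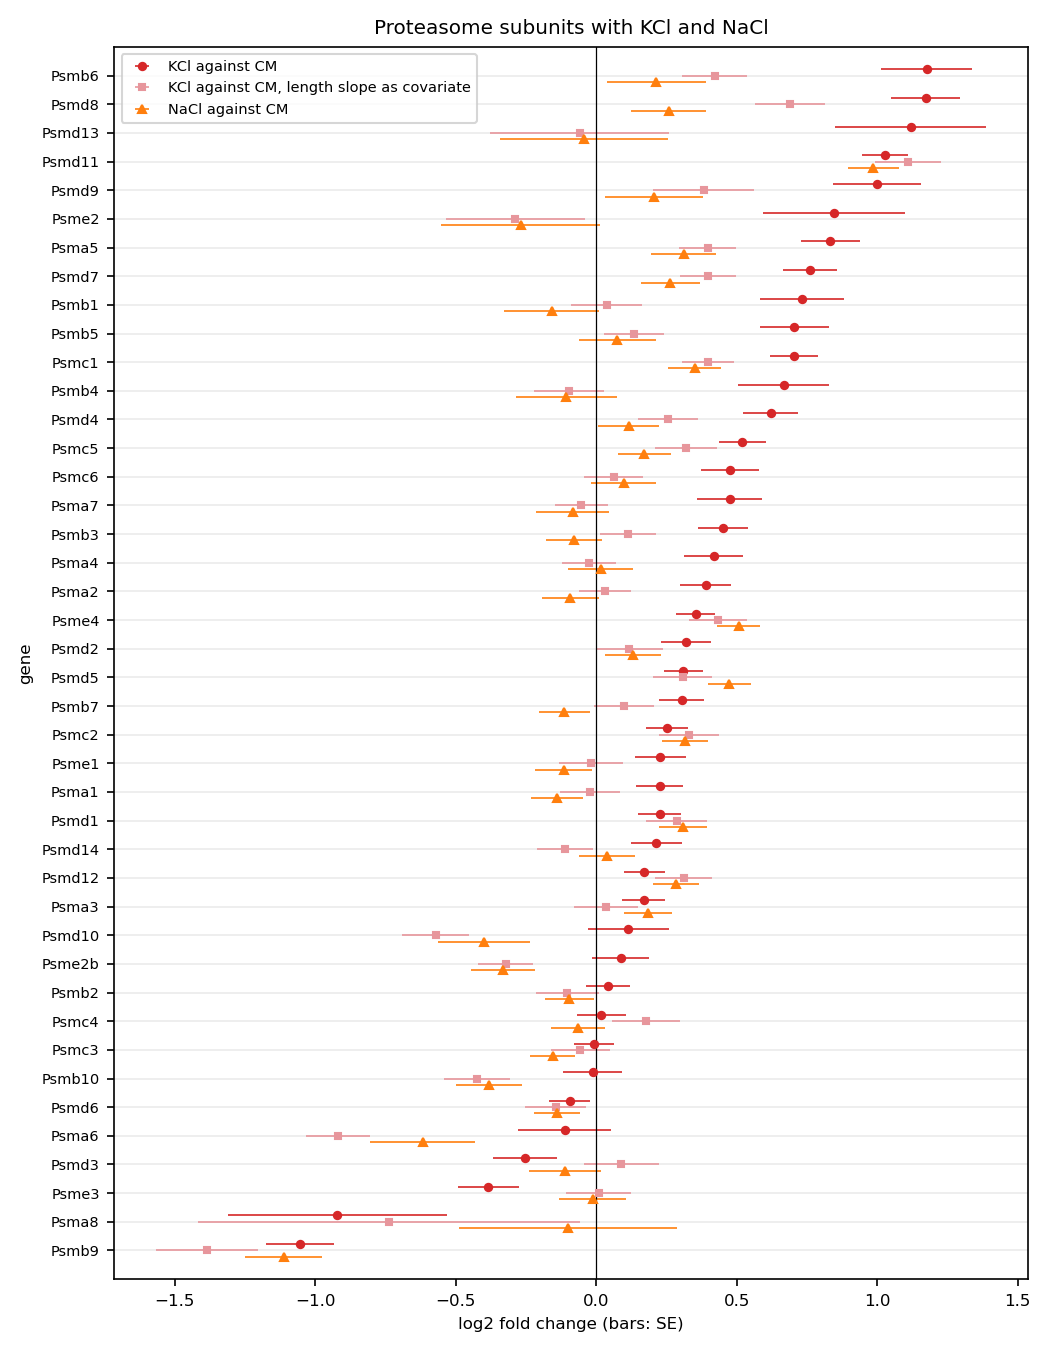
Log2 fold change against conditioned medium (horizontal axis, bars SE) of the 42 genes (rows, ordered by KCl) with KCl, with KCl and the length slope as a covariate, and with NaCl. Psmd11 lies near 1 and Psmb9 near −1 for all 3 markers, while Psmb6, Psmd13 and Psme2 lie further right with KCl alone than with the covariate or with NaCl.

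KCl against NaCl tests the difference between the salts directly. Of the 42 genes 24 were higher with KCl and 1 was lower, with a median of 0.37 against −0.04 over all genes, of which 15.4% were called higher, 16.2% lower and 31.6% either way. The highest were Psmd13 (1.16, SE 0.31, adjusted p = 0.018), Psme2 (1.12, SE 0.29, adjusted p = 0.0165) and Psmb6 (0.96, SE 0.18, adjusted p = 0.00366). Without KCl library 2 Psmd13 was at 0.75 and Psme2 at 0.70. For Psmb6 the KCl libraries at 697 to 1251 CPM lay above the NaCl libraries at 471 and 518 CPM. The gene called lower was Psme3, at 106 and 117 CPM with NaCl (−0.37, SE 0.12, adjusted p = 0.0318), which was −0.24 without KCl library 2 (adjusted p = 0.0548). The other low values were those of Psma8, at 1.78 and 1.14 CPM with NaCl (−0.82, SE 0.42), and Psmd5, at 101, 106 and 109 CPM with KCl (−0.16, SE 0.08), neither called. The difference was 0.04 (SE 0.09) for Psmd11 and 0.06 (SE 0.14) for Psmb9, and the libraries of the 2 salts overlapped for both genes.

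The number of calls changed with the libraries and the covariate in the fit. The count fell to 1 without NaCl library 2 and to 14 without NaCl library 1. It was 0 in edgeR with only these 2 groups (24 at an unadjusted p under 0.05, against 26 called by DESeq2 on the shared fit). With the length slope as a covariate it was 0 (2 at an unadjusted p under 0.05) and the median was −0.02. That fit called 0.496% of all genes higher and 0.647% lower, so its 0 is near the share over all genes. With KCl library 3 as the only KCl library, 13 were higher and 0 lower. Over all genes the median was 0.53 for transcripts of up to 1000 bases, 0.18 from 1000 to 2000 bases, −0.10 from 2000 to 4000 bases and −0.21 above, and the proteasome transcripts have a median length of 1490 bases. Among the subunits it was 0.56 for the 7 genes of up to 1000 bases, 0.37 for the 24 of 1000 to 2000 bases and −0.01 for the 11 longer ones. Whether the slope has a part in these differences was not tested beyond that covariate.

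**Figure D4:**
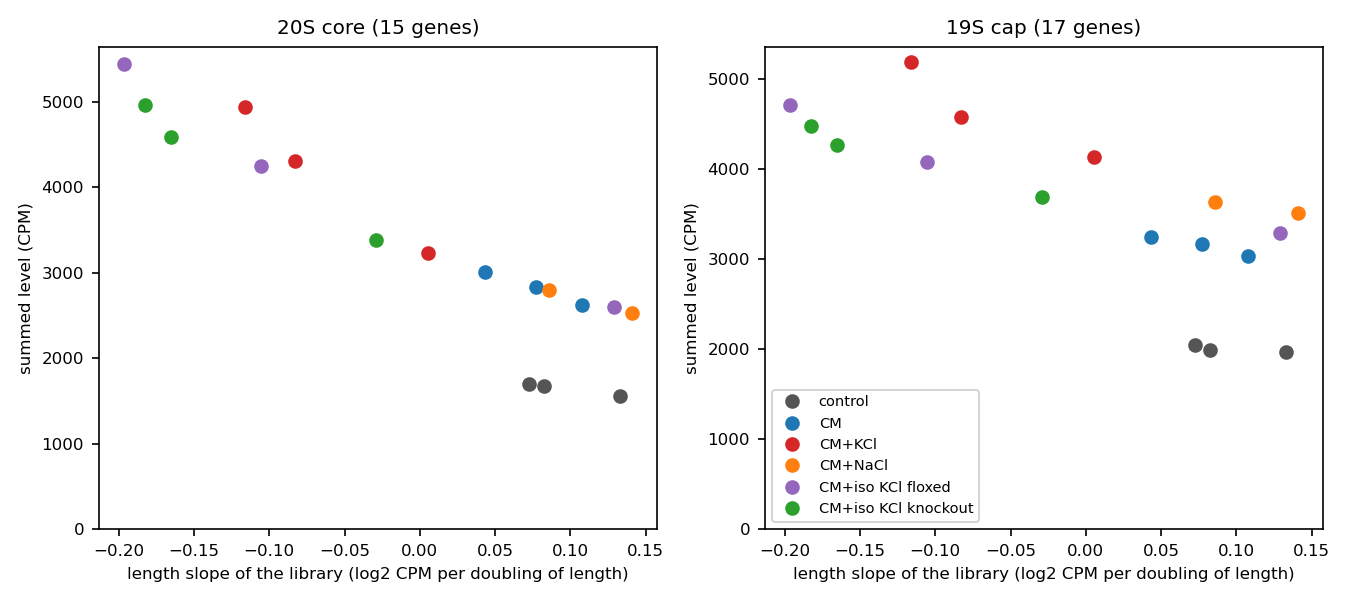
Summed CPM of the 15 core genes and of the 17 cap genes (vertical axes) against the length slope (horizontal axis, log2 CPM per doubling of transcript length) in each of the 17 libraries, coloured by group. Within the KCl, floxed and knockout groups the libraries with lower slopes have higher sums, and the control libraries lie lowest.

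In conditioned medium with isotonic KCl, Psmd8 and Psmd11 were called higher in floxed cells than in C57BL/6J cells in conditioned medium alone. The PA28 genes, Psmb10, Psmb6 and Psma5 were also called higher. Each of those calls was lost without some 1 library (highest adjusted p 0.0630 to 0.172). Strain and treatment both differ here and cannot be told apart. Of the 42 genes 8 rose and 0 fell, with a median of 0.34 against −0.01 over 14676 genes, of which 8.20% were called higher, 7.09% lower and 15.3% either way. With the length slope as a covariate the median was 0.04, 7 of the 8 calls were made, Psme2 had none (0.33, adjusted p = 0.141), Psmb6 was at 0.38 and Psma6 was called lower (−0.32). Without floxed library 2 the median was 0.15 and Psme2 was at 0.86 (adjusted p = 0.172). Psmb10 was at 89.1, 161 and 132 CPM in floxed libraries 1, 2 and 3 (0.66, SE 0.18, adjusted p = 0.0237). Psme1 was at 173, 253 and 245 CPM (0.49, SE 0.13, adjusted p = 0.0213). Psme2 and Psme2b summed to 587, 1459 and 1135 CPM (1.34, SE 0.38, and 0.72, SE 0.18, singly). Psmb6 was at 489, 1291 and 932 CPM (1.08, SE 0.28, adjusted p = 0.0182), Psmd8 at 517, 946 and 759 CPM (1.01, SE 0.19, adjusted p = 0.00231) and Psma5, an alpha subunit, at 139, 259 and 215 CPM (0.63, SE 0.18). Floxed library 1 was the lowest of the 3 for each of these genes, and overlapped with conditioned medium for Psme2 and Psma5.

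Psmd11 was even over the floxed libraries at 121, 121 and 122 CPM, above conditioned medium (0.35, SE 0.08, adjusted p = 0.00915). Psmb9 at 22.7, 38.9 and 32.5 CPM overlapped with conditioned medium (0.17, SE 0.21). The lowest values were those of Psme3 at 122, 80.0 and 94.5 CPM (−0.19, SE 0.14), Psmd3, a lid subunit, at 118, 111 and 115 CPM (−0.14, SE 0.11), and Psmc4, an ATPase, at 115, 117 and 131 CPM (−0.04, SE 0.10), none of them called. The count of 8 became 27 higher and 1 lower, 28 in all, without floxed library 1 and 2 without floxed library 2 or 3 or conditioned medium library 2 or 3, and it was 5 without conditioned medium library 1. It was 0 in edgeR with only these 2 groups (15 at an unadjusted p under 0.05, against 14 called by DESeq2 over all groups) and 0 with floxed library 1 alone (3 at an unadjusted p under 0.05). Calls on Psmd11 and Psmd8 were made without any 1 library.

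Deletion of Kcnj2 gave no call on any subunit. In edgeR 0 of 42 genes rose and 0 fell between knockout and floxed cells, and in 12782 genes tested 0.00782% were called higher, 0.00782% lower and 0.0156% either way. DESeq2 called 0 of the 42 as well, and 0 had an unadjusted p under 0.05 with either tool. The median was 0.06, and log2 fold changes ran from −0.14 for Psme4 (SE 0.16) to 0.37 for Psmb9 (SE 0.29). The median turned to −0.07 without floxed library 1 and to −0.003 without knockout library 1, and it was 0.26 without floxed library 2, 0.09 without floxed library 3 and 0.17 without knockout library 3. The next highest were Psma8 (0.29, SE 0.32) and Psme1 (0.24, SE 0.18), the next lowest Psmd11 and Psmd13 (both −0.07, SE 0.10 and 0.40). Psmb9 was at 45.8, 48.8 and 26.2 CPM in knockout libraries, Psmb6 at 1146, 1071 and 711 CPM, and Psme1 at 288, 268 and 231 CPM, each overlapping with floxed cells. The largest SE was 0.47, that of Psme2. Adjusting for length slope gave 6 lower calls (Psma6, Psmb1, Psmb4, Psmd7, Psmd13 and Psme2), in a fit that called 4.82% of all genes higher and 6.45% lower.

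The balance of inducible and constitutive catalytic genes can be read within a library, as a ratio of counts that needs no scaling between libraries. The ratio does not remove the length slope. Transcripts have 1352 bases for Psmb9, 798 for Psmb6, 1311 for Psmb10 and 1160 for Psmb7. No ratio was compared with the slope as a covariate. Psmb9 to Psmb6 was 0.180 ± 0.0112 in control and 0.0655 ± 0.00502 in conditioned medium (SD, n = 3 each). It was 0.0144 ± 0.00325 with KCl (n = 3), 0.0259 ± 0.00198 with NaCl (n = 2), 0.0371 ± 0.00835 in floxed and 0.0408 ± 0.00441 in knockout cells. Groups overlapped only between floxed and knockout cells (exact permutation p = 0.5, adjusted 0.6). In the other 5 comparisons the exact two-sided permutation p was 0.1 (adjusted 0.133 over 12 ratio tests), the smallest that 3 against 3 or 3 against 2 libraries can give, so none could pass.

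Psmb10 to Psmb7 moved the other way in conditioned medium, from 0.409 ± 0.00824 to 0.583 ± 0.0433. It was 0.466 ± 0.0588 with KCl, 0.481 ± 0.00554 with NaCl, 0.779 ± 0.114 in floxed and 0.761 ± 0.0550 in knockout cells. Groups were apart in the comparisons with conditioned medium (exact permutation p = 0.1 each, adjusted 0.133) and overlapped between the salts and between floxed and knockout cells.

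**Figure D5:**
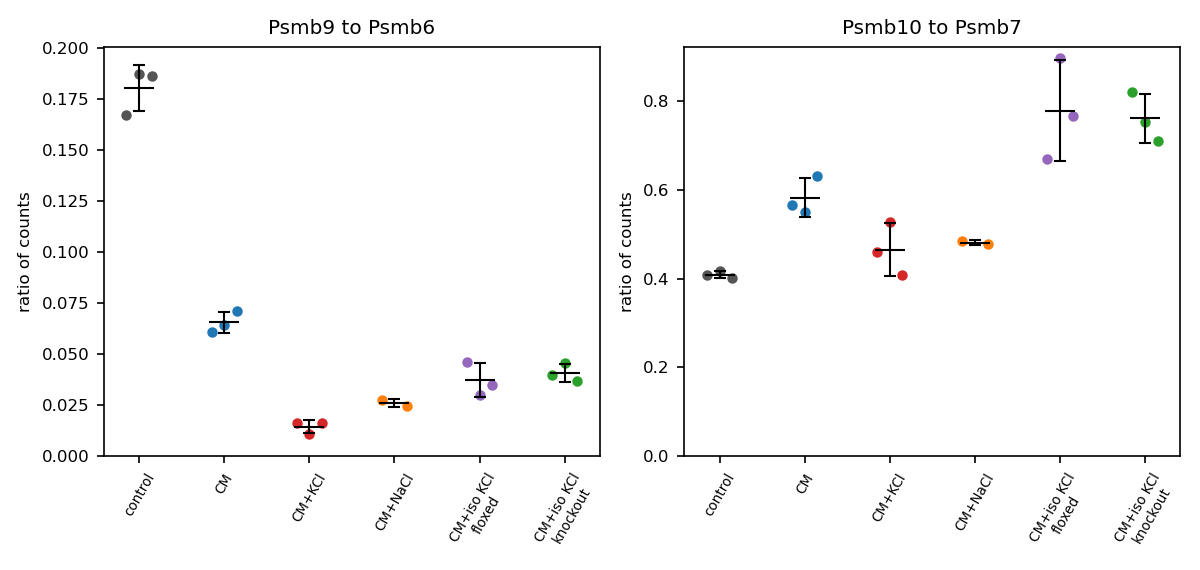
Ratio of counts of Psmb9 to Psmb6 (left) and of Psmb10 to Psmb7 (right) in each library, with the mean and SD in black, by group. The first ratio is highest in control and lowest with KCl, and the second is highest in the isotonic groups.

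Per kilobase of transcript, the 14 core genes other than Psma8 spread over a wider range in the treated groups. The lowest was Psma3 and the highest Psmb6 in each of the 6 groups. Psma3 was at 13.9 CPM per kb in control, 22.1 in conditioned medium and 25.1 with KCl, and Psmb6 at 187, 536 and 1222 CPM per kb. The ratio of highest to lowest was 13.5 in control, 24.2 in conditioned medium, 48.7 with KCl, 24.8 with NaCl, 47.6 in floxed and 49.9 in knockout cells. Psma3 has 2846 bases and Psmb6 798, so this ratio also moves with a library's length slope. How much of its rise goes with the slope was not tested. Protein stoichiometry was not measured.

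Of the assembly factors, Psmg4 (0.74) and Pomp (0.49) rose and Psmg1 (−0.78) and Psmg2 (−0.43) fell with KCl, and Psmg1 (−0.85) and Psmg2 (−0.65) fell with NaCl, with 0 risen. Of 20 associated genes 10 rose and 6 fell with KCl, and 5 and 6 with NaCl. Ublcp1, a phosphatase of the proteasome, fell in both (−2.09 with KCl and −1.32 with NaCl), as did the inhibitor Psmf1 (−1.22 and −0.86), while Txnl1 (0.74 and 0.33) and Ubqln4 (1.04 and 0.56) rose. Of 15 regulators 6 rose and 4 fell with KCl, and 5 and 3 with NaCl. The shares called over all genes were 26.6% higher and 27.4% lower with KCl, and 13.7% and 14.9% with NaCl. Mafk (1.37 and 1.01), Mafg (0.96 and 0.64) and Irf1 (0.72 and 0.59) rose with each salt. Ngly1, which activates Nfe2l1 protein by removing its sugars (−1.61 and −0.90), and Ddi2, the protease that releases it (−0.77 and −0.41), fell with each. Nfe2l2 rose with NaCl (0.37). Between KCl and NaCl 3 assembly factors, 7 associated genes and 4 regulators were higher with KCl, and 0, 6 and 5 lower. Of all genes 15.4% were higher and 16.2% lower there. In isotonic KCl against conditioned medium 0 of 5 assembly factors, 3 of 20 associated genes and 3 of 15 regulators rose. Those that fell numbered 0, 0 and 1, and over all genes 8.20% were called higher and 7.09% lower. Between knockout and floxed cells 0 genes of these lists were called, the lowest unadjusted p being 0.103, against 0.0156% of all genes.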

How the data were processed

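RNA-seq read counts per gene of 17 macrophage libraries were used as the authors deposited them: whole-number counts, not normalized. Which aligner, counter, build and strand option were used is not given in the sources used here. Per the submitters' processing notes, DESeq2 1.30.1 was among the tools, with no role stated. Identifiers were paired with symbols and transcript lengths through GENCODE M21. Of 55401 identifiers, 28418 had 0 counts in each library, and totals were 13503869 to 19391623 per library. Chi-square over its degrees of freedom was 2.05 to 133 for pairs of replicates, so no pair differed by counting noise alone. That does not tell separate cultures or animals from separate preparations of 1 culture. It was 2.05 to 5.47 in control, 2.59 to 5.40 in conditioned medium and 4.62 with NaCl. With KCl it was 28.8 to 89.1, in floxed cells 25.3 to 133 and in knockout cells 5.59 to 34.0. Groups in a fit share 1 estimate of the spread, so an SE is not that of the 2 groups alone. Tests used edgeR 4.0.16 in R 4.3.3 (TMM factors, low-count filter by group, robust quasi-likelihood F test, Benjamini-Hochberg over all genes). One fit held the 11 C57BL/6J libraries, one the 6 isotonic libraries and one all 17. The SE is the log2 fold change over the square root of F. Ratios of counts were compared by exact two-sided permutation. DESeq2 1.42.0, other scalings and filters, left-out libraries, a replicate block and a length slope covariate were alternatives, and single-library runs of KCl and floxed cells were chosen after seeing the data and assume that the lone library varies like the other groups. The edgeR steps were tested on simulated data with the same spread for all genes and groups and no length slope, unlike these data. One gene was left out of the members by name and is not reported here, so the immunoproteasome group is not complete. The members and lists were chosen with earlier results of these data known. Named genes were 7 catalytic and inducible members, the 3 highest and 3 lowest members per comparison and up to 6 genes per list by smallest p; Tap1 was added as the neighbour of Psmb9.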

Additional observations from a re-analysis of the deposited data

How the results depend on the processing

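The 36 calls in conditioned medium against control were 26 to 37 under the alternatives tried, and Psmc3 alone turned (−0.018, total-count scaling). Residual correlation was over 0.1 in 4 of 15 same-numbered and 1 of 30 differently numbered C57BL/6J pairs. Among isotonic libraries it was over 0.1 in 1 of 3 and 3 of 6 pairs. Whether replicate numbers pair the libraries was therefore not settled. The replicate block gave 36, 31, 12, 27, 9 and 0 calls in conditioned medium, KCl, NaCl, KCl against NaCl, isotonic floxed and knockout comparisons.
With the length slope covariate, calls numbered 16 with KCl, 22 with NaCl, 0 between the salts and 6 for the knockout. With KCl against conditioned medium these turned: Psmb4 −0.096, Psme1 −0.020, Psmd13 −0.059, Psma7 −0.052, Psma1 −0.022, Psma4 −0.027, Psme3 0.0082 and Psme2 −0.29. Between the salts the median was −0.024 and these turned: Psmb4 −0.18, Psmc1 −0.034, Psmc6 −0.14, Psmb5 −0.088, Psmd13 −0.30, Psma7 −0.10, Psmd10 −0.34, Psmb10 −0.14, Psma4 −0.16, Psma5 −0.030, Psme2b −0.098, Psme3 0.13 and Psme2 −0.29.
With replicate block and covariate, calls numbered 6 with KCl, 0 between the salts and 4 for the knockout. With KCl these turned: Psmb4 −0.33, Psmd2 −0.10, Psmb1 −0.17, Psma2 −0.011, Psmc6 −0.051, Psme1 −0.019, Psmd13 −0.60, Psma7 −0.11, Psma1 −0.030, Psma4 −0.073, Psme3 0.27 and Psme2 −0.82. Between the salts the median was −0.15 and these turned: Psmb4 −0.52, Psmb1 −0.29, Psma2 −0.033, Psmb6 −0.18, Psmc6 −0.31, Psmb5 −0.12, Psmd13 −1.09, Psma7 −0.18, Psmd9 −0.29, Psmd8 −0.056, Psmd10 −0.66, Psmb10 −0.35, Psma4 −0.23, Psma5 −0.073, Psme2b −0.096, Psme3 0.52 and Psme2 −1.07.
Fits of only the groups compared gave 22 calls with NaCl, 0 between the salts and 0 for isotonic floxed cells, where DESeq2 gave 14. With KCl library 3 alone the salts differed in 13 genes. With floxed library 1 alone there were 0 calls and a median of −0.029. Leaving out 1 library gave 26 to 32 calls with KCl, 4 to 8 with NaCl, 1 to 31 between the salts and 2 to 28 for isotonic floxed cells, and log2 differences in the Psmb10 to Psmb7 ratio of −0.15 to 0.033 between the salts and −0.13 to 0.083 for the knockout. The cause of these changes was not tested.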
